A study of Mus musculus with 6 samples.

Results

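The genes described here are 40 genes of DNA replication and of the passage from G1 into S phase, a set chosen by name from the 22180 genes that a probe set naming a single gene measured on these arrays. All 40 were measured, 36 by 1 probe set and 4 by the mean of 2, and all 40 reached the floor of 5.06, the median of all values, on at least 1 array, as did 13652 genes in all. The cells were C2C12, an established line of mouse myoblasts, which multiply while serum is plentiful and form myotubes with many nuclei once it is lowered. The 6 cultures, each on 1 Affymetrix whole-transcript array, crossed 2 media with 3 treatments. In 2% differentiation medium, entered from 10% fetal bovine serum (FBS), the cultures received BTZ at 10 nM on day 4, TNF-α at 50 ng/ml on day 4 or nothing, and were harvested on day 5. In growth medium with 10% FBS they received BTZ at 10 nM for 24 h, TNF-α at 50 ng/ml for 24 h or nothing. TNF-α is an inflammatory cytokine; the name BTZ is not spelled out in the labels and is the common abbreviation of bortezomib, a drug that blocks the proteasome. All samples are labelled as C2C12 myoblasts, and a dish in differentiation medium holds unfused cells beside myotubes, so fewer cycling cells and less RNA per cell cannot be told apart in these bulk measurements.

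Before S phase, cells load the MCM helicase onto origins of replication (licensing); at the start of S phase the helicase is activated, and polymerases, clamps and nucleases copy the DNA behind it while enzymes of nucleotide synthesis supply its building blocks. Most of these genes are transcribed in late G1 by the E2F factors, which the retinoblastoma protein family holds in check in resting cells. Myoblasts leave the cell cycle for good when they become myotubes, and the shutdown of E2F targets is part of that exit.

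Each group had 1 array, so a log2 difference between 2 arrays has neither an error nor a test, and its precision is limited by their number. An additive model of medium and treatment, fitted with limma to all 6 arrays and adjusted by Benjamini-Hochberg over the 13652 genes, supplied the only error available. It takes the 3 treatments as repeats of the medium comparison and the 2 media as repeats of a treatment, has 2 residual degrees of freedom, and counts any difference of a treatment between media as error. Array medians lay between 5.01 and 5.11, and arrays correlated at 0.948 to 0.982 over all probe sets. Myotube markers were higher in differentiation medium in the untreated pair, between 0.91 (Ckm) and 6.67. The embryonic myosin Myh3 stood at 11.05 there, against 4.38. In the BTZ pair Ckm differed by 0.04. The myoblast markers Des and Cdh15 were higher in every pair. Myod1 was at 1.61 untreated, 1.11 with TNF-α and -0.61 with BTZ, and Myf5 at -0.91, -1.59 and 0.72. Of the reserve cell markers, untreated, Pax7 was at 0.56, Hes1 at -0.29 and Cd34 at -1.49. Desmin (Des) was above the floor on all 6 arrays, between 9.65 and 11.69, as were the other 3 myoblast markers. Of the markers of other cells, all 3 endothelial ones, the white blood cell marker Ptprc, the macrophage marker Adgre1, the epithelial Epcam and Cdh1 and the adipocyte marker Adipoq stayed under the floor on every array. The macrophage marker Csf1r reached 5.07 at most. Above the floor on all 6 arrays were macrophage Cd68 (5.63 to 7.74), epithelial Krt8 (5.89 to 6.07) and fibroblast Pdgfra (7.62 to 8.99), and Cebpa lay between 4.81 and 6.03.

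The replication genes followed a common order over the arrays. Their median level was 5.70 with BTZ, 6.80 with TNF-α and 6.35 untreated in differentiation medium, and 7.25 with BTZ, 8.51 with TNF-α and 8.08 untreated in growth medium. For 38 of the 40 genes the highest array was TNF-α in growth medium, which was the highest for 18.9% of all genes above the floor. For 32 genes the lowest was BTZ in differentiation medium, against 20.3% of all genes. The exceptions to the first rule were E2f2, highest with TNF-α in differentiation medium, and Gins3, highest with BTZ in growth medium. In 33 of the 40 genes all 3 arrays in differentiation medium lay below all 3 in growth medium, a pattern found in 8.64% of all genes. The 7 that overlapped were E2f2, the chromatin factor Uhrf1 and the 5 genes of nucleotide supply. Each value of Dut is the mean of 2 probe sets, and with the brighter probe set of each gene Dut did not overlap and the count was 34.

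**Figure D1:**
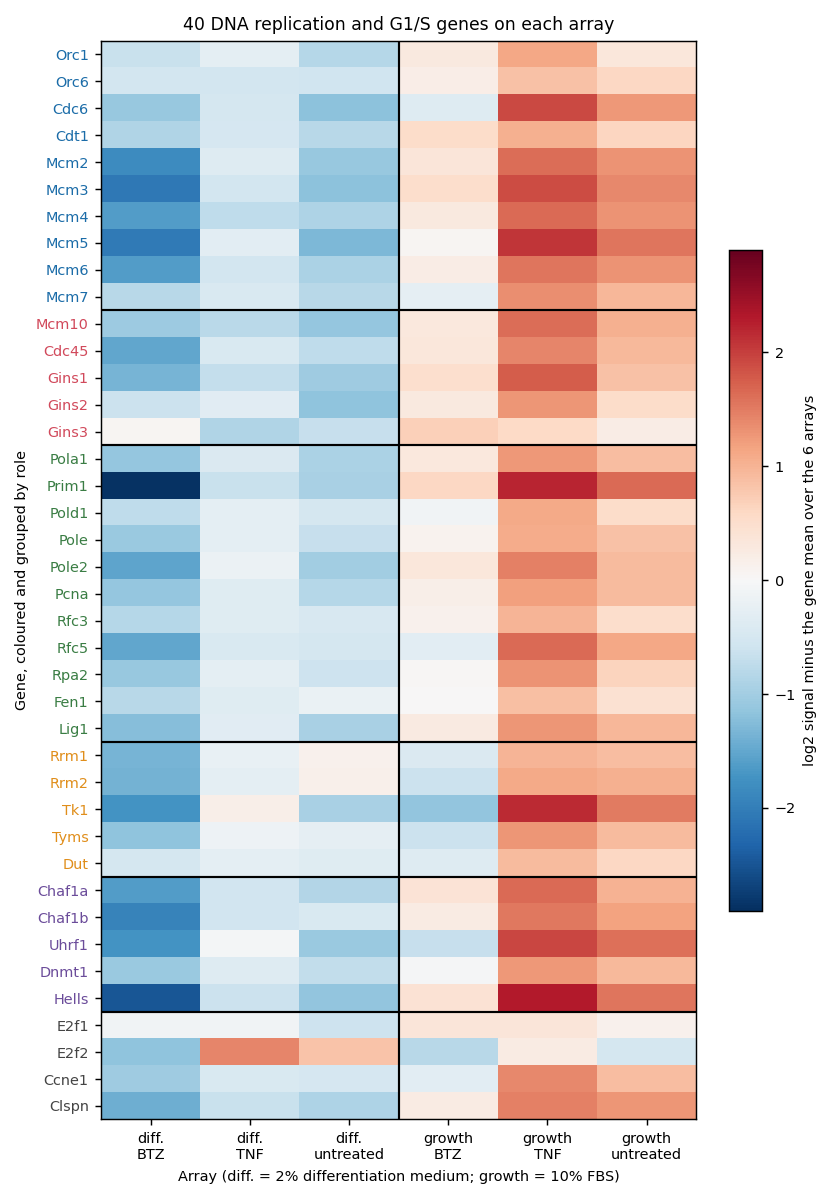
Each row is a gene, grouped and coloured by role, and each column an array; the colour is the log2 signal minus that gene's mean over the 6 arrays. TNF-α in growth medium was the highest array of 38 genes and BTZ in differentiation medium the lowest of 32. E2f2 was the only gene higher in differentiation medium in the untreated and TNF-α pairs.

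Promoter sequences were set beside these patterns, since the genes moved together. In the 250 bases before the annotated start, 36 of the 40 genes had 44 windows in the RefSeq-derived table (GRCm38.p6). Both strands were searched. A window held an E2F match if it contained TTCCCGC, if it contained TTCGCGC, if it contained TTGCCGC or if it contained TTGGCGC. An NF-Y match was CCAAT, and a match to the CHR element of mitotic genes was TTTGAA or else the related TTCGAA; matches of different motifs or strands may overlap. An E2F match lay in 20 of the 44 windows (45.5%), against 12.6% of windows of genes above the floor and 7.89% of all 32851 windows. Of the 40 mitotic genes set beside them, 32 had a window, and 3 of their 35 windows (8.57%) held one. CCAAT was in 59.1% of the replication windows and in 34.6% of those of genes above the floor, and the CHR letters in 18.2% and 12.3%; mitotic windows held CCAAT in 74.3% and CHR letters in 37.1%. Median GC content was 57.4% in replication windows and 59.2% in those of genes above the floor.

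6 windows are shown with every match in capitals. Mcm6, at chr1:128359706-128359955 (minus strand), and Mcm5, at chr8:75109259-75109508 (plus strand), encode subunits of the replicative helicase and were picked after the matches were seen, to show E2F letters that overlap (4 matches in Mcm6 and 3 in Mcm5).

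Mcm6: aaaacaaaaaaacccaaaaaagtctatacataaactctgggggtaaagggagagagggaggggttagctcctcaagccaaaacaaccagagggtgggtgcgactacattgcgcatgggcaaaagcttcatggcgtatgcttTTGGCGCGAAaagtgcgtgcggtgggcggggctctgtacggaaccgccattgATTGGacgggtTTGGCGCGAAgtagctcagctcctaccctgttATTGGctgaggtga

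Mcm5: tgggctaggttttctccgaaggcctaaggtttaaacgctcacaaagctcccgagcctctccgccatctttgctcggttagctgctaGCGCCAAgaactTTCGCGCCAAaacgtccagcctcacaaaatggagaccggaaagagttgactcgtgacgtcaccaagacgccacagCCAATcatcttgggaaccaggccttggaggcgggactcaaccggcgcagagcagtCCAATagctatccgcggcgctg

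In Mcm6 a forward and a reverse E2F match share bases at positions -109 to -100 from the start, and another such pair lies at -46 to -37. Uhrf1, at chr17:56303087-56303336 (plus strand), and thymidine kinase Tk1, at chr11:117826015-117826264 (minus strand), had the lowest differences with BTZ in growth medium, and Uhrf1 has a further window that is not shown. Orc1, at chr4:108579204-108579453 (plus strand), and Cdt1, at chr8:122567765-122568014 (plus strand), had the differences closest to 0 there among the genes with a window.

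Uhrf1: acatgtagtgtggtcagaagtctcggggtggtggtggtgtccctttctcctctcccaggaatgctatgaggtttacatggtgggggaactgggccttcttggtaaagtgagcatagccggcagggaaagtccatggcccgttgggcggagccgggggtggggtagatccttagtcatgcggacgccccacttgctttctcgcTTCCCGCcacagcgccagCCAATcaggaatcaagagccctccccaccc

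Tk1: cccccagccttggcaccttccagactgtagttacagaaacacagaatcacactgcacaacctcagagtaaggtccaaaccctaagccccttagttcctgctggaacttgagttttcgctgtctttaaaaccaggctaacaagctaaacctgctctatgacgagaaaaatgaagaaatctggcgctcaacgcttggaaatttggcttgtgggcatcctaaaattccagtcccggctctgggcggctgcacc

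Orc1: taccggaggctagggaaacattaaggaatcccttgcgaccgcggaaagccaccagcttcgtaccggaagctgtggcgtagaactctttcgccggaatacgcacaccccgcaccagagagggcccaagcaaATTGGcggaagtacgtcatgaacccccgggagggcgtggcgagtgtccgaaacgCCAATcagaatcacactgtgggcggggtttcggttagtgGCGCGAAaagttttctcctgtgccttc

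Cdt1: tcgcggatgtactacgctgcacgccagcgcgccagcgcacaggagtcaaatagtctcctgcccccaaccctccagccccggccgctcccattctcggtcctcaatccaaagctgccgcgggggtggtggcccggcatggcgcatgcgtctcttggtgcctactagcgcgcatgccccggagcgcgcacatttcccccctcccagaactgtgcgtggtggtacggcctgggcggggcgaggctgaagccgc

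In Uhrf1 an E2F match begins at -48 and a CCAAT at -30, and in Orc1 an E2F match begins at -27. Tk1 and Cdt1 held none of the letters in these windows. An E2F match was thus present in 1 window and absent from the other in both pairs. Over all members with a window, 9 of 14 genes at least 2-fold lower with BTZ in growth medium held an E2F match, and 9 of the other 22.

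The first comparison asked how the genes differed between differentiation and growth medium, and could be made 3 times without sharing an array: between the untreated, the TNF-α and the BTZ cultures. Replication genes were lower in differentiation medium each time. In the untreated pair 32 of the 40 lay at or past 2-fold on the low side and 1 on the high side (median log2 difference -1.68). In the TNF-α pair these counts were 38 and 1 (median -1.65), and in the BTZ pair 23 and 0 (median -1.16). Among all genes above the floor 3.92%, 4.85% and 2.13% were at least 2-fold lower in these pairs, and 4.83% were at least 2-fold higher in the untreated one. In all 3 pairs 23 of the replication genes were at least 2-fold lower, against 1.23% of all genes. The limma fit called 31 of the 40 lower in differentiation medium and 0 higher (adjusted p under 0.05), against 2.47% of all genes called lower, with adjusted p between 0.00511 and 0.298 over the 40 genes. Of the 9 that missed, 3 belonged to nucleotide supply (Tk1, Tyms and Dut), 2 were E2F factors, and the others were Cdc6, Mcm7, Gins3 and Fen1. With 4 arrays, 15 of the 40 were called lower without the TNF-α arrays, against 0.652% of all genes, and 39 of the 40 without the BTZ arrays, against 11.4% of all genes.

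**Figure D2:**
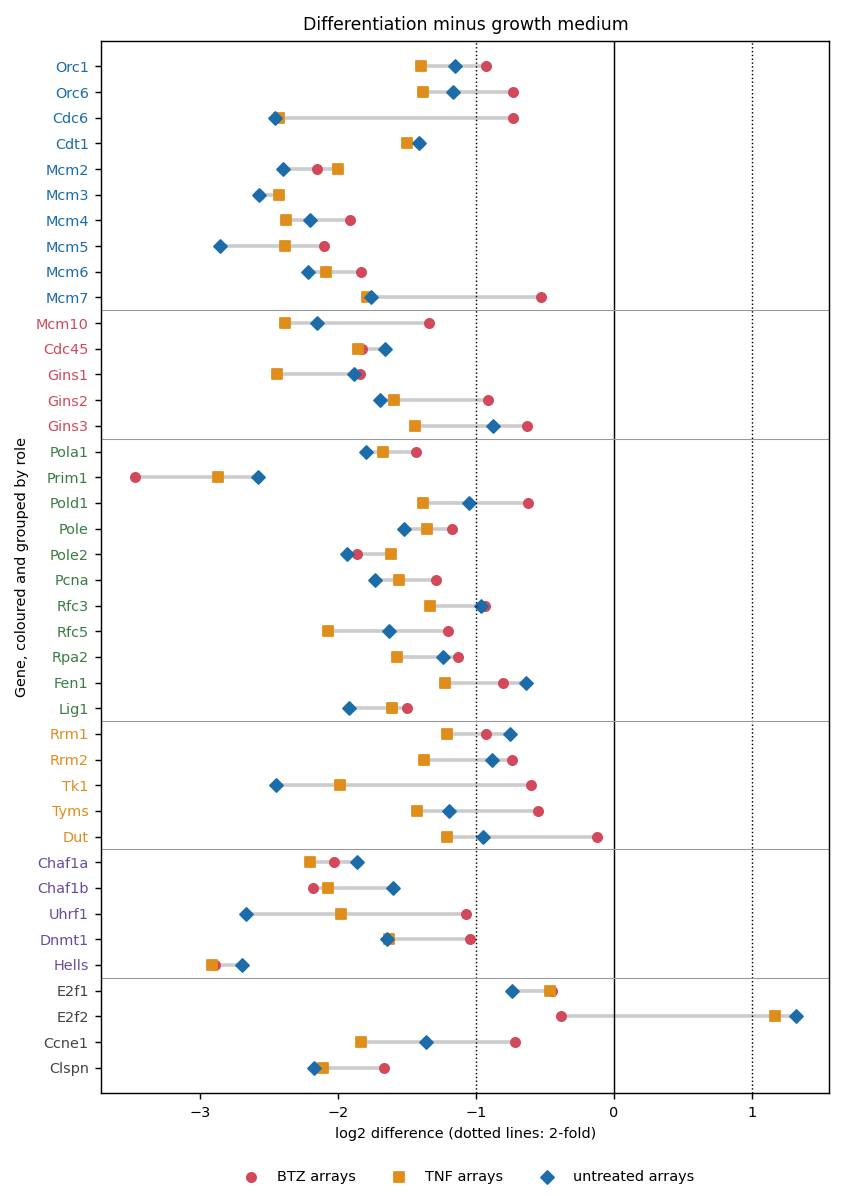
Each point is the log2 difference of differentiation minus growth medium for a gene, in the BTZ (circles), TNF-α (squares) and untreated (diamonds) pair of arrays; genes are grouped by role and dotted lines mark 2-fold. Points lie left of 0 for every gene except E2f2, whose untreated point is at 1.32, its TNF-α point at 1.17 and its BTZ point at -0.38.

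All 10 licensing genes, which mark origins or form and load the helicase ring, were at least 2-fold lower in differentiation medium in the untreated and in the TNF-α pair (medians -2.21 and -2.05), and 6 of 10 in the BTZ pair (median -1.62). Mcm5 stood at 5.40 with BTZ, 7.15 with TNF-α and 6.16 untreated in differentiation medium, against 7.51 with BTZ, 9.54 with TNF-α and 9.02 untreated in growth medium. Mcm4 stood at 6.79 with BTZ, 7.69 with TNF-α and 7.51 untreated in differentiation medium, against 8.70 with BTZ, 10.07 with TNF-α and 9.72 untreated in growth medium. Neither helicase subunit overlapped between media, and the fitted medium effects were -2.45 ± 0.19 (SE; limma adjusted p = 0.00516) for Mcm5 and -2.17 ± 0.15 (SE; limma adjusted p = 0.00511) for Mcm4. The fit called Mcm3 at -2.53, Mcm2 at -2.19 and Mcm6 at -2.05 as well. The 6 MCM2-7 subunits form a single ring, and Mcm7 was the one that missed the threshold, at -1.36 ± 0.28 (SE; limma adjusted p = 0.0606), with a BTZ pair at -0.53.

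Among the genes that load the ring, Orc1 at -1.16 and Orc6 at -1.10, subunits of the origin recognition complex, and the loader Cdt1 at -1.44 all passed. Cdc6, the other loader, stood at 5.40 with BTZ, 5.99 with TNF-α and 5.30 untreated in differentiation medium, against 6.13 with BTZ, 8.42 with TNF-α and 7.76 untreated in growth medium. Its media did not overlap, but the BTZ array in growth medium was far below the other 2 of that medium, and its fit missed the threshold (-1.87 ± 0.36, SE; limma adjusted p = 0.0535).

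Of the 5 genes that activate the helicase, 4 were at least 2-fold lower in the untreated pair, all 5 in the TNF-α pair and 3 in the BTZ pair, and 4 were called by the fit. Cdc45 and the GINS subunits Gins1, Gins2 and Gins3 join the MCM ring to form the working helicase, and Mcm10 helps to start it. The fit called Gins1 (-2.06), Mcm10 (-1.96), Cdc45 (-1.78) and Gins2 (-1.40). Gins3 stood at 8.12 with BTZ, 7.18 with TNF-α and 7.39 untreated in differentiation medium, against 8.74 with BTZ, 8.62 with TNF-α and 8.27 untreated in growth medium. Its media did not overlap, but in each medium its BTZ array was the highest, which held for neither Gins1 nor Gins2 in either medium. Gins1 was under the floor on all 3 arrays of differentiation medium.

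All 11 genes of the polymerases, the clamp and the lagging strand were lower in differentiation medium in every pair, and 10 of them were called by the fit. Prim1, the catalytic subunit of primase, which lays down RNA primers, differed most. It stood at 4.33 with BTZ, 6.54 with TNF-α and 6.25 untreated in differentiation medium, against 7.81 with BTZ, 9.41 with TNF-α and 8.84 untreated in growth medium (-2.98 ± 0.20, SE; limma adjusted p = 0.00511). The 3 pairs lay between -3.48 and -2.58, and the BTZ array in differentiation medium was under the floor. Pole2, a subunit of polymerase epsilon, was at -1.81 in the fit, the ligase Lig1 at -1.68, Pola1 of the primase-polymerase complex at -1.64 and the clamp loader subunit Rfc5 at -1.64. The sliding clamp Pcna stood at 8.34 with BTZ, 9.09 with TNF-α and 8.64 untreated in differentiation medium, against 9.63 with BTZ, 10.65 with TNF-α and 10.37 untreated in growth medium, with a fitted effect of -1.53. The polymerase epsilon catalytic subunit Pole was at -1.35, the single-strand binding subunit Rpa2 at -1.32, Rfc3 at -1.08 and the polymerase delta subunit Pold1 at -1.02, all called.

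Some of these values are means of 2 probe sets that differed. Pole is the mean of a probe set with differences of -2.76 in the untreated pair and of another with -0.28, which was under the floor on all 6 arrays. Fen1, the flap nuclease of the lagging strand, missed the threshold at -0.89 ± 0.17 (SE; limma adjusted p = 0.0514); its 2 probe sets gave -1.24 and -0.04 in the untreated pair. With the brighter probe set alone, Dut was at -1.78 in the untreated pair, against -0.95 as the mean of both.

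All 5 genes of nucleotide supply overlapped between media as means of their probe sets. In differentiation medium 2 of them were at least 2-fold lower in the untreated pair, all 5 in the TNF-α pair and 0 in the BTZ pair. With the brighter probe set of each gene these counts were 4, 5 and 1, with Rrm2 at -1.26 in the untreated and -1.42 in the BTZ pair, and Dut did not overlap. Rrm1, the large subunit of ribonucleotide reductase, stood at 8.09 with BTZ, 9.23 with TNF-α and 9.58 untreated in differentiation medium, against 9.02 with BTZ, 10.44 with TNF-α and 10.34 untreated in growth medium. The untreated and TNF-α arrays in differentiation medium thus lay above the BTZ array in growth medium. Tk1 stood at 5.81 with BTZ, 7.72 with TNF-α and 6.60 untreated in differentiation medium, against 6.41 with BTZ, 9.71 with TNF-α and 9.05 untreated in growth medium. Its medium difference was -2.45 in the untreated pair and -0.60 in the BTZ pair, and the fit missed the threshold (-1.68 ± 0.35, SE; limma adjusted p = 0.0632). Thymidylate synthase (Tyms) and the dUTP-cleaving enzyme Dut missed it too, while Rrm1 and the small reductase subunit Rrm2 were called, Rrm1 at -0.97 ± 0.15 (SE; limma adjusted p = 0.0299).

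All 5 chromatin genes were at least 2-fold lower in differentiation medium in each of the 3 pairs, and all 5 were called by the fit. Hells, a chromatin remodeller needed for DNA methylation, stood at 4.35 with BTZ, 6.21 with TNF-α and 5.69 untreated in differentiation medium, against 7.25 with BTZ, 9.13 with TNF-α and 8.39 untreated in growth medium (-2.84 ± 0.14, SE; limma adjusted p = 0.00511). Chaf1a and Chaf1b, subunits of the factor that places histones on new DNA, were at -2.03 and -1.95 in the fit. Uhrf1, which brings the maintenance methyltransferase Dnmt1 to new DNA, was at -1.91, and Dnmt1 at -1.44.

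The 4 regulators did not move as a group. The replication checkpoint adaptor Clspn was called at -1.99 and cyclin E1 (Ccne1), which drives entry into S phase, at -1.31. E2f1 was lower in every pair, at -0.74 untreated, -0.46 with TNF-α and -0.45 with BTZ, and missed the threshold (-0.55 ± 0.14, SE; limma adjusted p = 0.0991). E2f2 ran the other way: it stood at 5.22 with BTZ, 7.81 with TNF-α and 7.22 untreated in differentiation medium, against 5.60 with BTZ, 6.64 with TNF-α and 5.89 untreated in growth medium. Both arrays of differentiation medium without BTZ were above all 3 of growth medium, and the BTZ array was the lowest of the 6. The fit over all arrays gave 0.70 ± 0.35 (SE; limma adjusted p = 0.298), while the fit without the BTZ arrays called it higher in differentiation medium.

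The second comparison asked what BTZ went with in each medium. In growth medium 15 of the 40 genes were lower with BTZ by 2-fold or more, with 0 higher and a median of -0.82, while 6.16% of all genes were that much lower. In differentiation medium 7 were that much lower and 0 higher, with a median of -0.52, against 8.91% of all genes. Below 0 in both media were 32 genes, against 34.3% of all genes. At least 2-fold lower in both were 5, against 3.5% of all genes: Rrm1, Rrm2, Prim1, Rfc5 and Hells. Of these, Prim1 (4.33), Hells (4.35) and Rrm2 (5.01, the mean of 2 probe sets) were under the floor with BTZ in differentiation medium. The limma fit called 13 of the 40 lower with BTZ and 0 higher, against 6.85% of all genes called lower, with adjusted p between 0.014 and 0.821. Without the TNF-α arrays 7 of the 40 were called, against 5.13% of all genes. Across the 40 genes, which are not independent replicates, the differences in the 2 media share no array. They correlated at 0.45 (Pearson), against 0.66 over all genes above the floor. Leaving out E2f2 gave 0.55. By Spearman rank the values were 0.51 with E2f2 and 0.59 without it, against 0.61 over all genes.

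**Figure D3:**
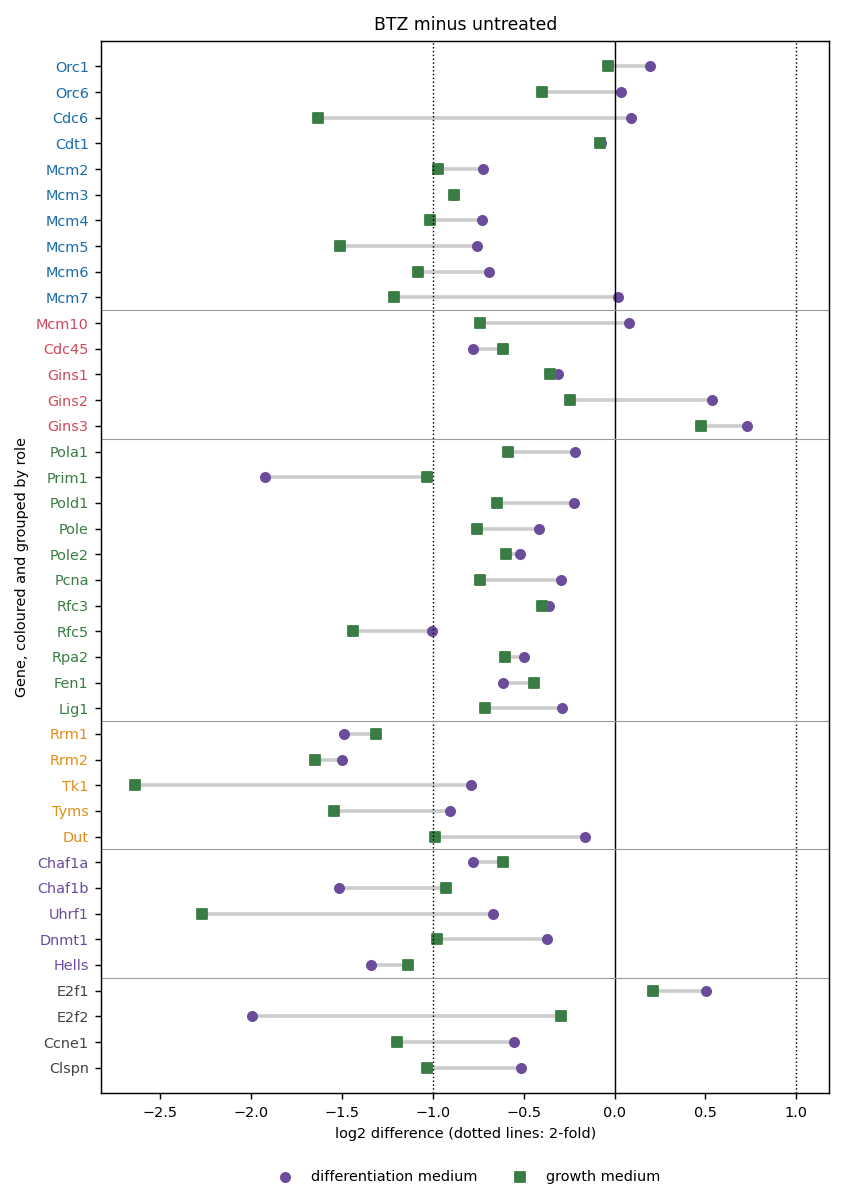
Each point is the log2 difference of BTZ minus untreated for a gene, in differentiation medium (circles) and growth medium (squares); genes are grouped by role and dotted lines mark 2-fold. Tk1, Uhrf1 and Cdc6 lie further left in growth medium, and E2f2, Prim1 and Chaf1b further left in differentiation medium.

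Nucleotide supply had the lowest median with BTZ, at -1.54 in growth medium and -0.90 in differentiation medium. Rrm1 differed by -1.49 in differentiation medium and by -1.31 in growth medium, and Rrm2 by -1.50 and -1.65. The fit called both, Rrm1 at -1.40 ± 0.18 (SE; limma adjusted p = 0.014) and Rrm2 at -1.57 ± 0.21 (SE; limma adjusted p = 0.0158). With its brighter probe set alone Rrm2 was at -2.48 in differentiation medium and -2.32 in growth medium. Tk1 was lower by more in growth medium, at -2.64, than in differentiation medium, at -0.79; its fit missed the threshold (-1.72 ± 0.43, SE; limma adjusted p = 0.0535). Tyms was called at -1.22. Dut was not called, at -0.16 in differentiation medium and -0.99 in growth medium; its brighter probe set was at 0.12 and -1.20.

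Of the licensing genes 5 were at least 2-fold lower with BTZ in growth medium and 0 in differentiation medium (medians -0.99 and -0.38). The helicase subunits Mcm2, Mcm3, Mcm4, Mcm5 and Mcm6 were lower in both media, between -0.89 and -0.69 in differentiation medium and between -1.51 and -0.89 in growth medium, and the fit called all 5. Mcm7 and Cdc6 departed from this. Mcm7 stood at 7.11 with BTZ and 7.09 untreated in differentiation medium, and at 7.65 with BTZ and 8.86 untreated in growth medium. Cdc6 differed by 0.09 in differentiation medium and by -1.63 in growth medium. Orc1 was at 0.19 in differentiation medium and -0.04 in growth medium, Cdt1 at -0.08 in both, and Orc6 was at 0.03 in differentiation medium and at -0.40 in growth medium.

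The helicase activators had the medians closest to 0 of the 6 roles. None of the 5 was 2-fold lower in either medium, and the medians were 0.08 in differentiation medium and -0.36 in growth medium. Gins3 was higher with BTZ in both media, by 0.73 and 0.47, and Gins2 by 0.54 in differentiation medium with -0.25 in growth medium; the fit called neither. Cdc45, at -0.78 and -0.61, was the one called (-0.70 ± 0.17, SE; limma adjusted p = 0.0478).

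All 11 polymerase, clamp and lagging strand genes were below 0 in both media, with medians of -0.42 in differentiation medium and -0.64 in growth medium. Prim1 differed by -1.93 in differentiation medium, where its BTZ array was under the floor, and by -1.03 in growth medium, and Rfc5 by -1.01 and -1.44. The fit called these 2 of the 11, Prim1 at -1.48 ± 0.25 (SE; limma adjusted p = 0.0222) and Rfc5 at -1.22 ± 0.24 (SE; limma adjusted p = 0.0305). Among the chromatin genes Uhrf1 stood at 5.17 with BTZ and 5.84 untreated in differentiation medium, and at 6.24 with BTZ and 8.51 untreated in growth medium. Hells at -1.24 and Chaf1b at -1.22 were called, and Uhrf1 missed the threshold (-1.47 ± 0.37, SE; limma adjusted p = 0.0535).

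Among the regulators E2f2 stood at 5.22 with BTZ and 7.22 untreated in differentiation medium, and at 5.60 with BTZ and 5.89 untreated in growth medium. E2f1 was the regulator above 0 in both media, at 0.50 and 0.21. Ccne1 was at -0.55 in differentiation medium and -1.20 in growth medium, and Clspn at -0.51 and -1.03. None of the 4 passed the fit.

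Set against itself between media, the BTZ difference of the 40 genes was higher in differentiation medium by a median of 0.32, a value taken over 4 arrays that has no error, and in 28 of the 40 it was closer to 0 in differentiation medium, as it was in 45.3% of all genes. Tk1 (1.85), Cdc6 (1.73), Uhrf1 (1.60) and Mcm7 (1.23) leaned most that way, and E2f2 (-1.70) and Prim1 (-0.90) the other way. Under the floor were 9 of the 40 on the BTZ array of differentiation medium and 0 on each array of growth medium. The 9 were Orc1, Gins1, Prim1, Pole, Fen1, Rrm2, Chaf1a, Hells and Clspn. The share of all genes under the floor on each array was not computed, so these counts have no background to be read against. Myotube markers moved too: all 6 were lower with BTZ in differentiation medium, between -4.01 (Mymk) and -1.03 (Acta1), and Myog stood at 6.93 with BTZ and 10.90 untreated. Of the 4 macrophage markers Cd68 stood at 6.24 with BTZ and 5.63 untreated in differentiation medium, and at 7.74 with BTZ and 6.57 untreated in growth medium, while Ptprc and Adgre1 were under the floor on all 6 arrays. The part of these in the result was not tested.

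The third comparison asked what TNF-α went with. In growth medium all 40 were above 0, between 0.08 (Rrm2) and 0.91 (Gins1), with a median of 0.42, while 53.8% of all genes above the floor were above 0. None reached 2-fold, as 0.982% of all genes did. With the brighter probe set of the 4 genes with 2, 39 of 40 were above 0, Rrm2 being at -0.23. In differentiation medium 35 of 40 were above 0 (median 0.34), against 51.0% of all genes. There 2 were at least 2-fold higher, Tk1 at 1.12 and Uhrf1 at 1.02, against 2.01% of all genes. The limma fit called 0 of the 40, with adjusted p of 0.496 or more, and 0.0806% of all genes higher. At an unadjusted p under 0.05, 11 of the 40 were higher, against 3.73% of all genes. The 40 genes share the same arrays and are not independent. Counted in either direction, the number at that p lay between 8 (quantile normalization) and 14 (shifted medians) over the scalings, probe set rules and floors tried. In the limma fit of 4 arrays without the BTZ arrays it was 24, with 1 residual degree of freedom. That fit called 0 of the 40 for TNF-α, with a lowest adjusted p of 0.0532, and called 128 of all 13652 genes higher. The share of all genes at the unadjusted p was not computed for it.

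**Figure D4:**
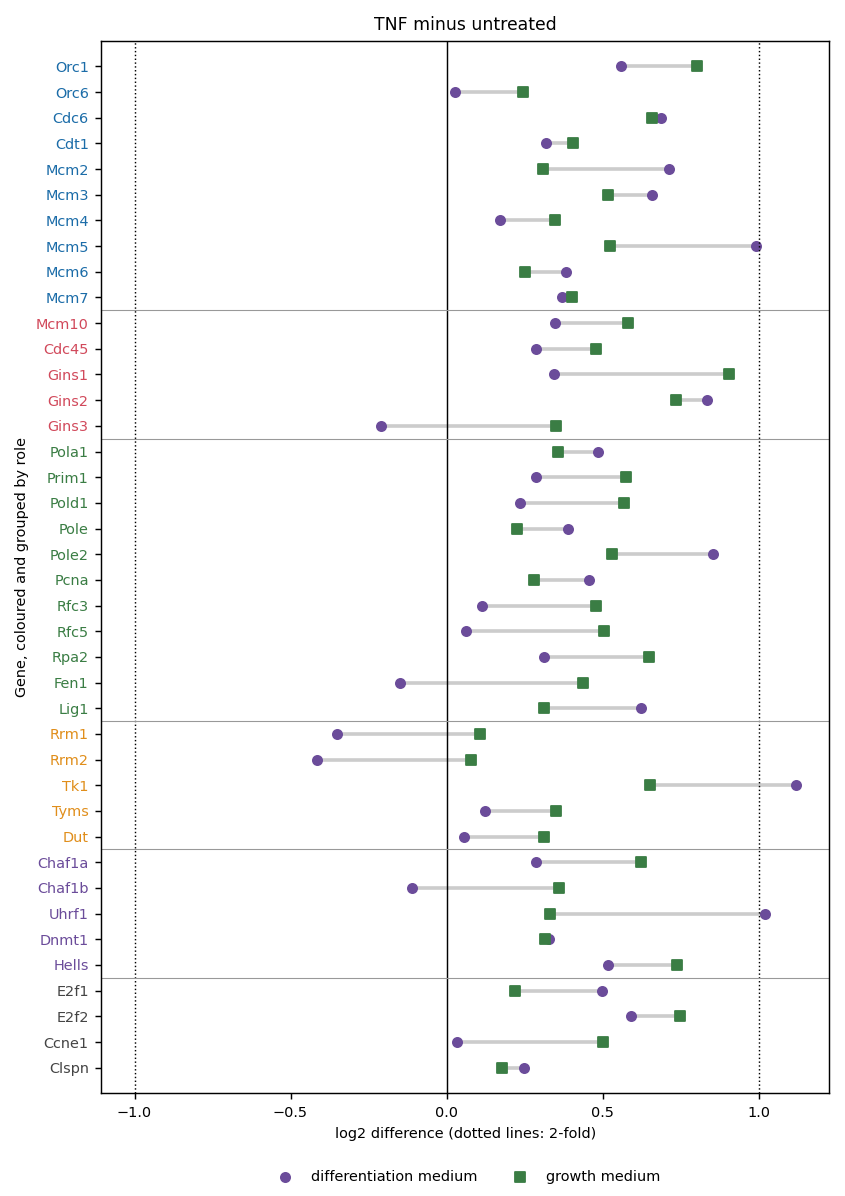
Each point is the log2 difference of TNF-α minus untreated for a gene, in differentiation medium (circles) and growth medium (squares); genes are grouped by role and dotted lines mark 2-fold. All 40 squares lie right of 0, between 0.08 and 0.91, and 35 of the 40 circles do.

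The role medians with TNF-α lay close together in growth medium, between 0.31 for nucleotide supply and 0.58 for the helicase activators. In differentiation medium they lay between 0.06 for nucleotide supply and 0.47 for licensing. Mcm5 at 0.99, Pole2 at 0.85 and Gins2 at 0.84 followed Tk1 and Uhrf1 there. The 5 genes below 0 were Rrm2 (-0.41), Rrm1 (-0.35), Gins3 (-0.21), Fen1 (-0.15) and Chaf1b (-0.11), and the brighter Fen1 probe set was at 0.49. Even with TNF-α the levels in differentiation medium did not reach those of untreated growth medium, except for E2f2: Tk1 stood at 7.72 against 9.05, and Uhrf1 at 6.86 against 8.51.

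The mitotic genes, most of which act later in the cycle, were set beside the replication genes. Of 41 listed, 40 were measured. In the untreated medium pair their median was -2.78, and that of the replication genes -1.68. BTZ in growth medium left 37 of 40 mitotic genes 2-fold lower or more, with a median of -2.06, and 15 of 40 replication genes, with a median of -0.82. Among all genes 6.16% were that much lower. With BTZ in differentiation medium the mitotic median was -1.01 with 14 of 40 genes under the floor, and the replication median -0.52 with 9 of 40 under it. How many of all genes were under the floor on that array was not computed. With TNF-α the mitotic median was 0.91 in differentiation medium and 0.32 in growth medium, and the replication medians were 0.34 and 0.42. In differentiation medium 14 of 40 mitotic genes were at least 2-fold higher with TNF-α, against 2.01% of all genes. The difference between the sets was not tested.

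**Figure D5:**
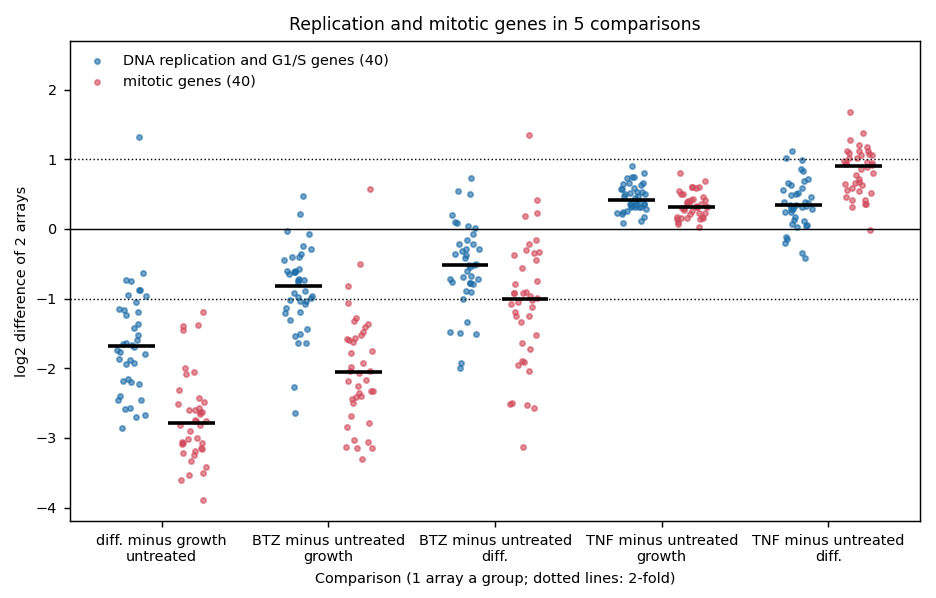
Each point is a gene's log2 difference between 2 arrays in 5 comparisons, for the 40 replication and G1/S genes (left of each pair) and the 40 mitotic genes (right); black bars are medians and dotted lines mark 2-fold. With BTZ in growth medium the medians are -0.82 and -2.06.

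Other genes of the pathway, listed apart from the 40, were lower in differentiation medium as well. Of 48 further genes of the replication machinery 45 were measured. The untreated medium pair had 28 of them 2-fold lower or more and 0 higher, at a median of -1.18, against 3.92% of all genes lower. Lowest were the histone chaperone Asf1b at -3.08, the origin firing factor Ticrr at -2.72 and the replisome protein Wdhd1 at -2.62. With BTZ 2 were 2-fold lower or more and 2 higher in differentiation medium (median -0.09). Over all 13652 genes 1216 and 826 were, which are larger shares. In growth medium 12 were lower and 0 higher (median -0.49), against 841 and 681 of all genes. Samhd1, which breaks down nucleotides, was the lowest with BTZ in both media, at -2.20 and -2.16. The highest with BTZ were Orc4 at 1.34 and Orc2 at 1.04 in differentiation medium, and Orc4 at 0.89, Pold4 at 0.56 and Orc2 at 0.51 in growth medium. Another origin recognition subunit, Orc5, was at -0.06 and 0.06, and was named after its values were seen. The limma fit called 21 of the 45 lower for the medium, against 2.47% of all genes above the floor. For BTZ it called 3 lower and 1 higher (Orc4), against 935 and 998 of all 13652 genes. These counts of the fit for BTZ are not above the shares over all genes. With TNF-α 38 of 45 were above 0 in differentiation medium and 42 of 45 in growth medium, against 51.0% and 53.8% of all genes.

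Of 29 genes of E2F, retinoblastoma and G1/S control 28 were measured. The untreated medium pair had 10 of them 2-fold lower or more and 2 higher, at a median of -0.57, against 3.92% and 4.83% of all genes. Fbxo5, an inhibitor of the mitotic ubiquitin ligase, was at -2.38, cyclin D1 (Ccnd1) at -2.22 and Skp2, which marks the inhibitor Cdkn1b for breakdown, at -2.16. The inhibitor Cdkn1a was at 3.32, cyclin D3 (Ccnd3) at 1.06 and Fbxw7, which marks cyclin E for breakdown, at 0.79. With BTZ in growth medium the repressor E2f8 (-2.91), Fbxo5 (-2.61) and Ccnd1 (-2.27) were lowest and Cdkn1a (1.44), E2f6 (0.77) and Fbxw7 (0.44) highest. With BTZ in differentiation medium Ccnd3 (-2.57), E2f8 (-2.47) and Tfdp2 (-2.14), a partner of E2F factors, were lowest and E2f6 (1.48) and Ccnd1 (1.10) highest. Ccnd1 thus differed with BTZ by 1.10 in differentiation medium and by -2.27 in growth medium, while the repressor E2f8 was lower in both.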

How the data were processed

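RNA of 6 C2C12 cultures was measured on 1 array each. Per the labels' protocols, total RNA was extracted with TRIzol, purified, amplified and labelled with biotin by a whole-transcript kit. The authors deposited a processed value for each probe set on each array, taken as log2 signal because values run between 1.66 and 14.06; how they summarized and normalized the probes is not stated in any source used. Of 41345 probe sets 23521 named a single gene in the platform annotation, and probe sets of one gene were averaged. The 3 probe sets that name a replication gene together with another gene were left out. Genes whose highest array reached the median of all values entered the comparisons. The model was fitted with limma 3.58.1, under R 4.3.3, by lmFit and a trended eBayes, and tested on simulated data. The 40 genes and the lists were chosen with earlier results of these data known, and no p-value was adjusted over a list alone. Named genes were all 40, and up to 3 highest and 3 lowest of the other lists. Scaling, probe set rule, floor, fold and the arrays fitted were varied. Nothing says that cultures were repeated.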

Additional observations from a re-analysis of the deposited data

Results flagged for a closer look

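Treatment differences of opposite sign in the 2 media were found for 11 genes; none of these was tested, since each group had 1 array. With BTZ, Cdc6 differed by 0.09 in differentiation medium and -1.63 in growth medium (difference of differences 1.73), and Mcm7 by 0.02 and -1.21 (1.23). The same pattern, with smaller gaps, held for Mcm10 (0.82), Gins2 (0.78), Orc6 (0.43) and Orc1 (0.23). With TNF-α the signs were opposite, negative in differentiation medium and positive in growth medium, for Fen1 (-0.58), Gins3 (-0.56), Rrm2 (-0.49), Chaf1b (-0.47) and Rrm1 (-0.46). For Fen1 and Rrm2 the 2 probe sets of the gene disagreed on a TNF-α sign.

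E2f2 had a medium difference of -0.38 with BTZ and 1.32 untreated, a change of -1.70 that was not tested either. It is the one replication gene that was higher in differentiation medium without BTZ.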

How the results depend on the processing

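Shifting the arrays to the same median, quantile normalization, the brightest probe set, no floor and a floor 1 log2 unit higher left each median difference of the 40 genes with its sign. Each also moved by less than a yardstick, the median residual SD of the additive fit times the square root of 2. That SD also holds differences of a treatment between media, so it is not a measured error of 2 arrays. No paired analysis was possible because the labels give every array the replicate number 1, so that number pairs no arrays beyond the medium and treatment terms of the fit. At 1.5-fold, genes lower numbered 35 in the BTZ medium pair (7.41% of all genes), and with BTZ 18 in differentiation medium (17.6%) and 29 in growth medium (13.7%). With BTZ in differentiation medium 1 was higher at 1.5-fold (15.8%), and with TNF-α 10 in differentiation medium (5.42%) and 9 in growth medium (5.25%). After quantile normalization 1 gene was 2-fold higher with TNF-α in differentiation medium. In fits of 4 arrays, leaving out the TNF-α arrays gave 15 genes lower for the medium and 7 for BTZ, and leaving out the BTZ arrays gave 39 genes lower and 1 higher for the medium, E2f2; these have 1 residual degree of freedom. Over all genes the medium calls on the low side numbered 337 with 6 arrays, 1552 without the BTZ arrays and 89 without the TNF-α arrays; the cause was not tested. For single genes the same yardstick was taken from each gene's own residual SD. With the brightest probe set 17 differences of the 40 genes moved past it, all in Pole, Fen1, Rrm2 and Dut. Quantile normalization moved 3 and shifted medians 1. No difference past 2-fold changed sign, but smaller ones did with the brightest probe set, such as Fen1 with TNF-α in differentiation medium (0.49), Rrm2 with TNF-α in growth medium (-0.23) and Dut with BTZ in differentiation medium (0.12). The floor is the median of all values and not a limit of detection. Values ran down to 1.66, and Gins1 stood at 3.90 with BTZ in differentiation medium. Whether low signal made some differences smaller was not tested.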
